A study of Mus musculus with 21 samples.

Results

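Peaks of anti-Myc ChIP-seq, input and ATAC-seq libraries were described at 8 endothelial genes of the mouse, Cdh5, Pecam1, Esam, Icam2, Cd34, Robo4, Vwf and Egfl7. The members were all peaks that overlapped the body of one of these genes or the 50 kb on either side of it, 295 of the 230847 peaks in 17 lists. Positions are on GRCm38 (mm10). The first 6 of these genes encode proteins of cell junctions or the cell surface, while Vwf and Egfl7 encode secreted proteins, so the shared label of junction and surface genes describes most but not all of them.

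Endothelial cells line blood vessels and are held together by adherens and tight junctions. VE-cadherin, the product of Cdh5, forms the adherens junction, and PECAM-1 (CD31) and ESAM are immunoglobulin-type adhesion proteins of the same cell contacts. ICAM2 is an adhesion ligand for leukocyte integrins, CD34 is a sialomucin of endothelial and blood progenitors, and ROBO4 is the endothelial member of the roundabout receptors. Von Willebrand factor (Vwf) is stored in endothelial granules and binds platelets, and Egfl7 encodes a secreted protein of growing vessels and hosts the endothelial microRNA miR-126. SOX7 belongs with SOX17 and SOX18 to the SOXF transcription factors, which act in endothelial cells.

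All samples came from 1 line of mouse embryonic stem cells, A2lox-Sox7-Myc, derived from E14Tg2a, in which doxycycline switches on Myc-tagged Sox7. The cells were grown as embryoid bodies and collected on day 4, and the induced ChIP and ATAC samples had doxycycline at 1 µg/ml for the last 24 h. ChIP used unsorted cells with the anti-Myc antibody (4 uninduced and 4 induced lists) and 1 uninduced input list. ATAC-seq, which marks open chromatin by transposase insertion, used cells sorted as PDGFRalpha+FLK1+, titled CPC (cardiac progenitors), or as PDGFRalpha-FLK1+, titled EPC (endothelial progenitors). These sorts are those of the sample labels, while the growth protocol names another, PDGFRalpha+FLK1-, which no ATAC sample carries, so the labels disagree on the sort. Each sort had 2 libraries without and 2 with induction. Uninduced cells carry the same transgene without doxycycline. RNA-seq was not analysed here (4 samples), so all values concern chromatin and none concerns expression.

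ATAC lists held 23068 to 30732 peaks, the shortest being uninduced replicate 2 of each cell type, and ChIP lists held 772 to 2807. The sequencing depth behind the lists is unknown, so a peak missing from a list can also mean a shallower library. The lists of uninduced ChIP replicates 2 and 4 were nearly alike, with 75.8% of start positions in common (counted over list 4) against at most 1.04% for any other pair of ChIP and input lists. They were counted as 1 library, which leaves 3 uninduced ones. No label tells whether replicates came from separate cultures, and the spread behind the p-values may therefore be technical. The ATAC lists had peaks at Kdr, which encodes FLK1, in every EPC library (3 to 5) and every CPC library (2 to 4), and at Pdgfra in every library (1 to 3 in EPC and 2 or 3 in CPC), so these peaks do not separate the sorts. All 5 blood genes looked at (Tal1, Gata1, Itga2b, Ptprc and Spi1) had a region open in EPC alone, against 8.48% of all genes. Together they had 27 to 33 peaks per EPC library against 19 to 25 per CPC library. Of 5 cardiac genes, 2 had a region open in CPC alone, against 5.61% of all genes. They had 16 to 22 peaks in all per EPC library and 18 to 28 per CPC library, summed over the 5. Of 4 pericyte and smooth muscle genes, 1 had a region open in EPC alone, against 8.48% of all genes, and the 4 had 10 to 13 and 10 to 16 peaks. Totals of other gene sets were not computed. No marker gene was without a peak in all libraries of a cell type. The part of any of these cells in the values below was not tested.

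RefSeq promoter sequences (GRCm38.p6) were at hand for 3 of the 8 genes, Cd34, Robo4 and Egfl7, all on the plus strand, and are shown because an ATAC peak of the EPC libraries alone covered the Robo4 promoter and the second of 3 Egfl7 promoters. Each line gives the 250 bases before the start site, 5′ to 3′. Capitals mark every match, on either strand, to 4 short motifs, and no matches overlap in these windows. The motif searched for ETS factors was GGAAG. Core letters of SOX motifs were searched as ACAAT and, in a second form, as ACAAAG. For GATA factors the letters searched were AGATAA.
Robo4, chr9:37401722-37401971: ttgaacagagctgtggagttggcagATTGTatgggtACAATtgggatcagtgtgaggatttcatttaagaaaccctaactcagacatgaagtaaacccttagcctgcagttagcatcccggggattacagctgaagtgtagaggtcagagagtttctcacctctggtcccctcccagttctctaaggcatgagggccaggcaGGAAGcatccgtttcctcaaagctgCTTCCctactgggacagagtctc
Egfl7 promoter 1, chr2:26580833-26581082: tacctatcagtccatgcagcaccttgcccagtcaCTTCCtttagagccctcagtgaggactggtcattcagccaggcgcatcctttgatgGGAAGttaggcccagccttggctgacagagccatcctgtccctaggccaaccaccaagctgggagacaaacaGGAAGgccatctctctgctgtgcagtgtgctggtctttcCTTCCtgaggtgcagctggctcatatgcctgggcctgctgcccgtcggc
Egfl7 promoter 2, chr2:26583615-26583864: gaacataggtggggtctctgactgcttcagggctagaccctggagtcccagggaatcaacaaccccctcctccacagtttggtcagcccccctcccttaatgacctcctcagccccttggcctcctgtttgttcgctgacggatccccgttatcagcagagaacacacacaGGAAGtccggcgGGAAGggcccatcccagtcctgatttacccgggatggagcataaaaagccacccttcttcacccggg
Egfl7 promoter 3, chr2:26586386-26586635: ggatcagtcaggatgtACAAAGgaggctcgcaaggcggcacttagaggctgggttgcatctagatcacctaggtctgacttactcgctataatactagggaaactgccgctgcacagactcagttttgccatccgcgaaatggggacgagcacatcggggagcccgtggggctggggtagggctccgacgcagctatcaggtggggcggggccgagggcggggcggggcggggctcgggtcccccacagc
Cd34, chr1:194938571-194938820: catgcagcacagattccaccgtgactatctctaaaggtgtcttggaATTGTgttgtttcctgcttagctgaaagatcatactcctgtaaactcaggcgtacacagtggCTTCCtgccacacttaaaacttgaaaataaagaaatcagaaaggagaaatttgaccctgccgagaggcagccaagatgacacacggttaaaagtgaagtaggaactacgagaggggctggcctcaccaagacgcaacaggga

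The Robo4 window held ACAAT at 2 positions and GGAAG at 2 positions. Egfl7 promoter 1 held GGAAG 4 times, promoter 2 held it at 2 positions, and promoter 3 held ACAAAG once. Of 32851 mouse promoters of the same length, 27.7% held ACAAT, 16.5% ACAAAG, 64.1% GGAAG and 9.99% AGATAA, so the matches are common ones and mark letters, not binding sites. No window held AGATAA. No ChIP peak of any list overlapped one of the 5 windows. ATAC peaks did differ between them. The Robo4 window and Egfl7 promoter 2 were each overlapped by a peak in 4 of 4 EPC and 0 of 4 CPC libraries, Egfl7 promoter 3 in 4 EPC and 3 CPC libraries, the Cd34 window in 1 EPC and 3 CPC libraries, and Egfl7 promoter 1 in none. Promoter 3 was the most GC-rich of the Egfl7 windows, with 63.2% G or C against a median of 52.4% over all promoters.

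The first comparison asked how open chromatin at these genes differed between EPC and CPC, whatever the doxycycline state. Overlapping ATAC peaks of all libraries were merged into 51264 regions, and 72 of them lay at the 8 genes, 22 inside a gene or across its boundary. There were 9 regions, at Cdh5, Icam2, Cd34, Robo4 and Egfl7, that had a peak in all 4 EPC and no CPC library, called EPC-only here, and 0 regions had the reverse pattern. EPC-only regions thus made up 9 of 72, where 2.10% of all ATAC regions met the rule, and CPC-only regions 0 of 72, where the share of all regions was 1.80%. By gene, 5 of the 8 had an EPC-only region within 50 kb, against 8.48% of 19564 protein-coding genes with an ATAC peak there, and 0 of 8 had a CPC-only region, against 5.61%. The 8 genes had a median of 9 ATAC regions, where the median over all genes was 5. A locus with more regions has more that could meet either rule, and the shares by gene were not adjusted for this. The 8 genes were chosen with earlier results of these data known, so these counts describe them and do not test them. In cells measured in bulk, more open cells and more opening per cell cannot be told apart. For a single region, 4 against 4 libraries gave an exact permutation p of 0.0286 at best, with a smallest adjusted p of 0.733 over all regions, so no region passed after Benjamini-Hochberg adjustment. With scores of 100 or more required, the EPC-only regions numbered 5, and within the gene bodies alone 3. The shares of all regions under these settings were not computed.

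**Figure D1:**
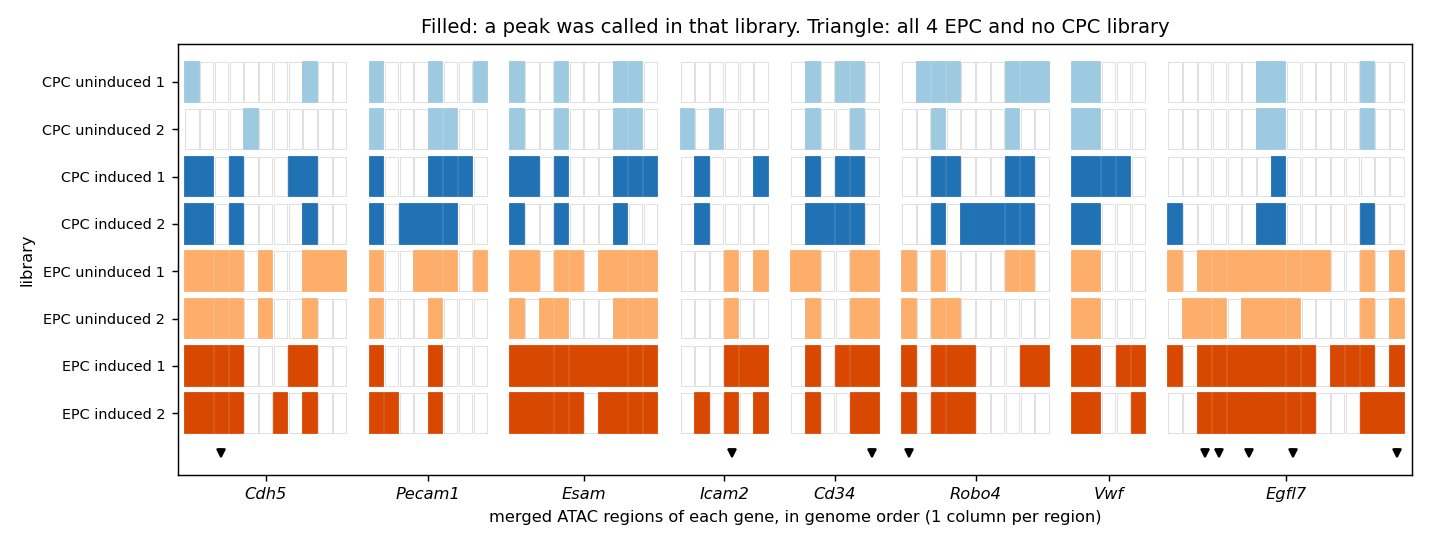
Presence of an ATAC peak in each of the 8 libraries (vertical axis) at each of the 72 merged regions, grouped by gene and in genome order (horizontal axis). Filled boxes are called peaks and triangles mark the 9 EPC-only regions, 5 of which lie at Egfl7.

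Peaks were also counted per library in each gene body with 50 kb on either side. Separate peaks of a list were counted separately, also where they lay in the same merged region. At Egfl7 the EPC libraries held 12 and 9 (uninduced) and 13 and 11 (induced) peaks, and the CPC libraries 3 and 3 (uninduced) and 1 and 4 (induced). The lowest EPC library thus held 9 peaks and the highest CPC library 4, and the means were 11.2 ± 1.71 and 2.75 ± 1.26 peaks (SD, n = 4 each). The difference of 8.5 peaks had an exact permutation p of 0.0286, the smallest 4 against 4 libraries allow, and an adjusted p of 0.565 over 19564 genes, so it did not pass. Egfl7 was the 1 member of 8 whose EPC libraries all lay above all CPC libraries, which held for 3.36% of all genes. The reverse, every CPC above every EPC library, held for 0 of 8 members and 1.70% of all genes. The difference was 6.5 peaks within 10 kb, 5.5 with lists cut to equal length and 1.25 in the gene body alone. With scores of 100 or more it was 3.75 peaks, and the libraries of both cell types overlapped.

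Esam and Cdh5 came next. Esam had 8 and 6 (uninduced) and 11 and 9 (induced) peaks in EPC, and 4 and 4 (uninduced) and 6 and 3 (induced) in CPC, a difference of 4.25 (exact permutation p = 0.0571, adjusted p = 0.834). Cdh5 had 9 and 6 (uninduced) and 7 and 6 (induced) in EPC, and 2 and 1 (uninduced) and 6 and 4 (induced) in CPC, a difference of 3.75 (exact permutation p = 0.0857, adjusted p = 0.834). At both genes the groups met only at 6 peaks, reached by induced CPC replicate 1. At Cdh5 these 6 included separate peaks of the same merged region (104095516 to 104096168 and 104096455 to 104097450). Without induced CPC replicate 1, every EPC library lay above every CPC library at Cdh5, Esam and Egfl7, as at 5.04% of all genes. Without uninduced EPC replicate 2, the same held at Esam and Egfl7, and at 6.98% of all genes.

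For the other 5 genes the groups overlapped widely. Icam2 differed by 1 peak, Cd34 by 0.5 and Vwf by 0.25 in favour of EPC, and Robo4 and Pecam1 differed by -0.25 and -0.75, with exact permutation p from 0.314 to 1. The median EPC minus CPC difference was 0.75 peaks over the 8 genes and 0.25 over all genes. No gene of 19564 passed the adjustment, and 989 had an unadjusted p under 0.05.

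**Figure D2:**
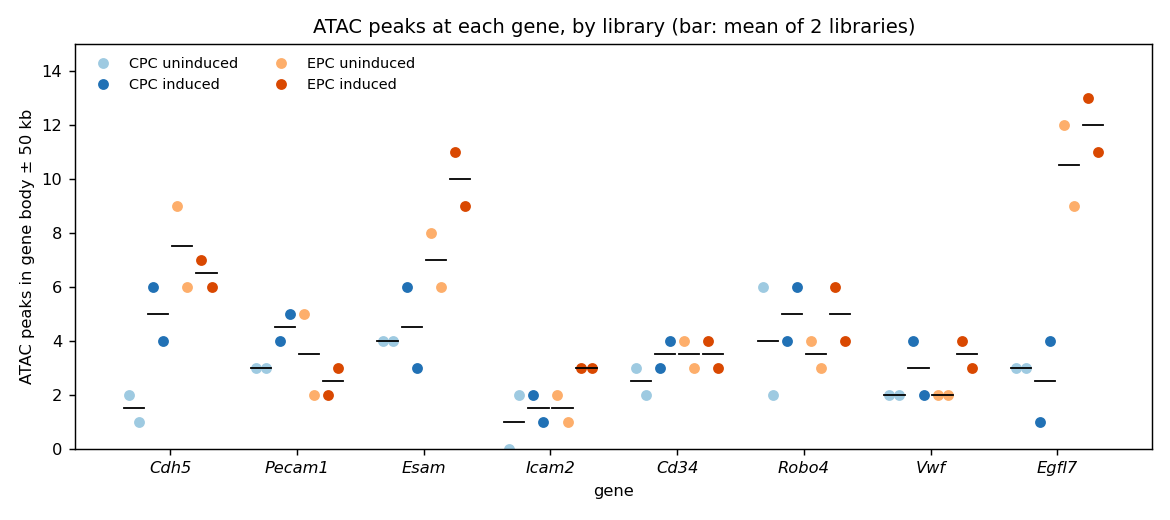
ATAC peaks in the gene body and 50 kb on either side (vertical axis) for each gene (horizontal axis). Points are single libraries and bars are means of 2 libraries. Egfl7 is the gene where the EPC points (9 to 13) all lie above the CPC points (1 to 4).

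Of the junction genes, Cdh5 (chromosome 8, 104101613 to 104144504) had 11 ATAC regions, 9 of them with peaks in more EPC than CPC libraries. The EPC-only region lay 1.59 kb below the gene (104098561 to 104100025), with peak scores of 211.4 and 52.1 in uninduced and 201.8 and 179.7 in induced EPC. The score is the value that the authors' peak caller gave a peak, a higher score meaning a smaller p-value in MACS 1.4, and the ATAC lists start at 50. Scores depend on the depth of a library, so scores of different lists are set side by side as a description and were not compared. Uninduced EPC replicate 2 was therefore close to the lower limit. Flanking regions, 4.16 kb below the gene (104095272 to 104097450) and across its lower boundary (104101021 to 104102060), had a peak in all 4 EPC libraries, in both induced CPC libraries and in neither uninduced CPC library. At the boundary the scores were 62.6 and 59.9 in induced CPC, against 369.6 and 51.9 in uninduced and 392 and 255.9 in induced EPC. At 4.16 kb they were 139.7 and 137.8 in induced CPC, 171.7 and 70.1 in uninduced EPC and 292.5 and 496.3 in induced EPC. On induction, then, the CPC libraries had peaks in 2 of the 3 merged regions in which every EPC library had a peak. The merged region at 4.16 kb joins neighbouring peaks that several lists called separately. Uninduced EPC replicate 2 had its peak there at 104095427 to 104096163. Induced CPC replicate 2 had its peak at 104096531 to 104097395, so these peaks did not overlap.

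Pecam1 (chromosome 11, 106654213 to 106715281) had 8 ATAC regions and no EPC-only region. The region across its upper boundary (106714752 to 106715875) was called in all 8 libraries. Its scores were 50.9 and 80.7 in uninduced CPC, 104 and 62.6 in induced CPC, 171.5 and 127.3 in uninduced EPC and 256.3 and 184.8 in induced EPC. The other region called in all 8 libraries lay 40.5 kb below the gene in Tex2 (106612256 to 106613702), with scores of 93.2 to 290.6 in CPC and 116.8 to 333.5 in EPC. Presence of a peak thus did not differ between the cell types at either region.

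Esam (chromosome 9, 37528089 to 37538319) had 10 ATAC regions, 7 with peaks in more EPC than CPC libraries and 0 with the reverse. The region with the highest mean score in the gene (37529681 to 37531658) was called in all 8 libraries, with scores of 306.4 and 136.3 in uninduced CPC, 516.8 and 383.6 in induced CPC, 924.9 and 491.1 in uninduced EPC and 1152.1 and 1058.6 in induced EPC. The regions across the lower boundary (37527562 to 37528547) and the upper boundary (37537315 to 37538432) each had a peak in 3 of 4 EPC and 0 CPC libraries, which is just outside the EPC-only rule. Another region, 15.6 kb above the gene (37553889 to 37555827), was called in all EPC libraries with scores of 718.4 to 1126.7 and in 3 CPC libraries with scores of 55.6, 67.3 and 134.9. The remaining regions called in all 8 libraries lay 37.5 kb below the gene (37488237 to 37490581, scores 483.5 to 653.7 in CPC and 646.3 to 1291 in EPC) and 13.6 kb above it (37551962 to 37553377, scores 206.4 to 407 and 136.5 to 567.7).

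Among the surface genes, Icam2 (chromosome 11, 106377656 to 106388139) had 6 ATAC regions. Its EPC-only region lay inside the gene (106382206 to 106383178), with scores of 189.9 and 99.5 in uninduced and 125 and 118.8 in induced EPC. No CPC library had any peak inside Icam2, while every EPC library had 1 or 2.

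Cd34 (chromosome 1, 194938821 to 194961292) also had 6 regions. The EPC-only region lay 33.6 kb above the gene (194994935 to 194995968) and had scores of 263.2 and 282.8 in uninduced and 190.3 and 239.8 in induced EPC. A region 10.3 kb below the gene (194927361 to 194928511) was called in all 8 libraries, with scores of 56.2 to 75.7 in CPC and 223.3 to 695.9 in EPC. So was a region 14.5 kb above it (194975787 to 194977560), with 186.1 to 509.6 in CPC and 237.6 to 518.2 in EPC. At the start site of Cd34 (194938488 to 194939394) the pattern was the other way round, with peaks in 3 CPC libraries (68.6, 74.5 and 69) and 1 EPC library (63.3), all near the lower limit.

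Robo4 (chromosome 9, 37401902 to 37414023) had its EPC-only region across the start site (37401476 to 37402564), over the whole promoter window shown above. The scores were 112.6 and 157.4 in uninduced and 160.8 and 278.8 in induced EPC, so every library was at least 2 times the lower limit of 50. Of the other 9 regions, 5 had peaks in more CPC than EPC libraries, and 4 lay in the neighbouring gene Robo3. One of these, 6.33 kb above Robo4 (37420353 to 37421545), was called in all 8 libraries, with scores of 330.3 to 581.8 in CPC and 502.2 to 801.9 in EPC. Within the gene body all 4 EPC libraries had 1 peak, and 1 CPC library did. The EPC minus CPC difference changed from -0.25 peaks within 50 kb to 0.75 within 10 kb.

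Of the genes for secreted proteins, Vwf (chromosome 6, 125552948 to 125686679) had 5 ATAC regions, all inside the gene or across its boundary, and no EPC-only region. The region across its lower boundary (125552332 to 125553537) was called in all 8 libraries, with scores of 251.1 and 149.5 in uninduced CPC, 761.8 and 455.8 in induced CPC, 402 and 310.3 in uninduced EPC and 515.6 and 838.5 in induced EPC. The other region called in all 8 libraries lay inside the gene (125572725 to 125574007), with scores of 321.1 and 177.7 in uninduced CPC, 179.4 and 153.4 in induced CPC, 388.1 and 271.2 in uninduced EPC and 410.3 and 271.3 in induced EPC.

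Egfl7 (chromosome 2, 26581083 to 26592682) had 16 ATAC regions, where 97.7% of all genes had fewer and their median was 5. These counts are not scaled by gene length. Of these, 15 had peaks in more EPC than CPC libraries and 5 were EPC-only. The EPC-only regions lay 8.49 kb (26571267 to 26572597) and 4.34 kb (26575398 to 26576738) below the gene, at promoter 2 inside it (26583345 to 26584464), 0.438 kb above it over the neighbouring gene Agpat2 (26593120 to 26596683), and 47.3 kb above it (26639962 to 26640944). The region over Agpat2, which encodes an enzyme of phospholipid and triglyceride synthesis, was the widest and had the highest score of the 5 in each EPC list, 618.4 and 241.5 in uninduced and 337.4 and 463.2 in induced EPC. At promoter 2 the scores were 160.8 and 64.7 in uninduced and 213.8 and 127.5 in induced EPC.

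One Egfl7 region, inside the gene (26588224 to 26589342), was called in all 8 libraries, with scores of 365 and 434.3 in uninduced and 343.9 and 345.7 in induced CPC, against 60.7 and 153.8 in uninduced and 116 and 239.5 in induced EPC. The locus thus held 5 EPC-only regions and 1 region that every library shared.

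The hairpin of miR-126a lies on the plus strand inside Egfl7 (26591357 to 26591429). Its mature 3′ arm is shown from RefSeq (GRCm38.p6) because the microRNA shares the locus, with the seed, bases 2 to 8, in capitals.
mmu-miR-126a-3p: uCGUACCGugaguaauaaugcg
No peak of any of the 17 lists overlapped the hairpin. The nearest ATAC regions were the EPC-only region over Agpat2, 1.69 kb above it, and the region called in all 8 libraries, 2.02 kb below it.

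**Figure D3:**
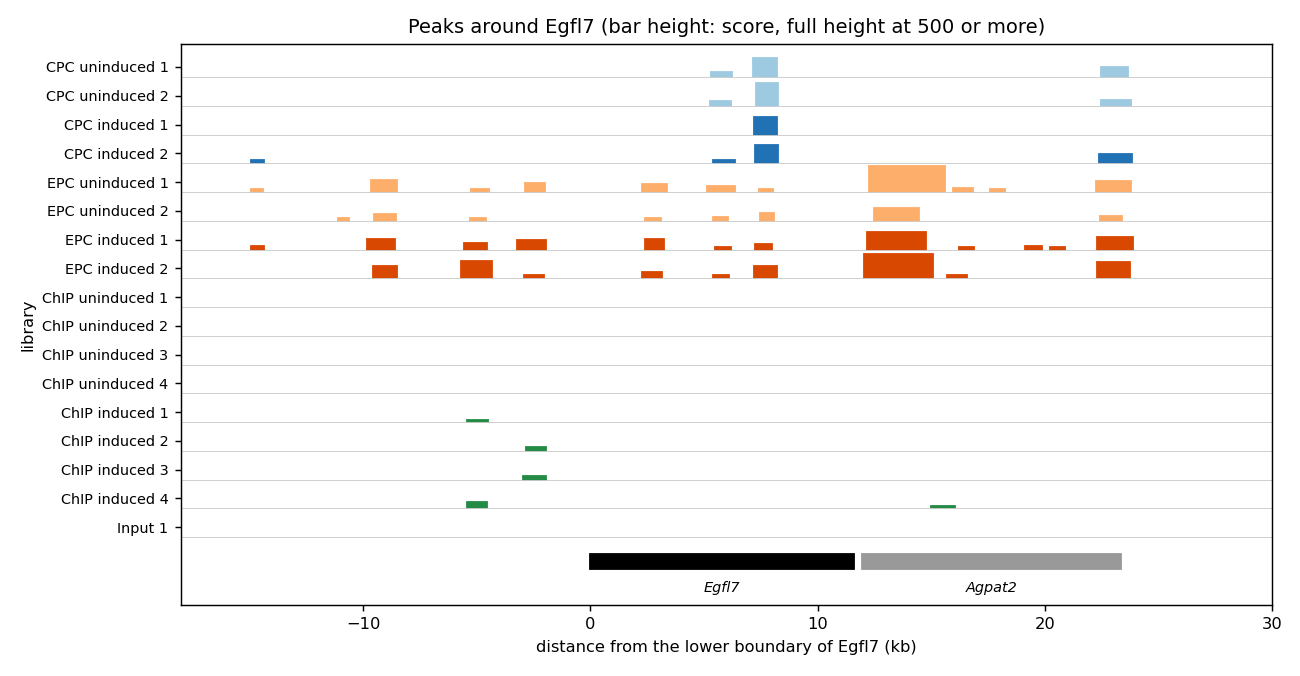
Peaks of the 17 lists (vertical axis) around Egfl7, as distance in kb from the lower boundary of the gene (horizontal axis), with bar height showing the score up to a fixed limit. EPC libraries have peaks below the gene and over Agpat2 that the CPC libraries lack, and 1 region inside the gene has a peak in all 8 ATAC libraries. Green bars are ChIP peaks of induced libraries.

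The second comparison asked what induction of Sox7 changed at these genes in each cell type. Within a cell type, a region was gained when its peak was called in the 2 induced lists and in no uninduced list, and lost in the reverse case. In CPC, 3 of the 72 regions were gained, where 5.75% of all regions were, and 0 were lost, where 2.35% were. In EPC, 2 were gained, where 6.12% were, and 1 was lost, where 1.82% were. Counted by gene, 2 of 8 genes had a region gained in CPC (20.7% of all genes) and 2 of 8 in EPC (21.9% of all genes). A lost region lay at 0 of 8 genes in CPC (9.35% of all genes) and at 1 of 8 in EPC (7.91% of all genes). These shares lie near the background, and 2 against 2 libraries cannot go below an exact permutation p of 0.333. These counts rest on single libraries. With any 1 library dropped the gained regions numbered 3 to 10 in CPC and 2 to 10 in EPC. The lost regions then numbered 0 to 3 and 1 to 9, the 9 without uninduced EPC replicate 2. Dropping a library relaxes the rule for all regions, and the shares of all regions in these runs were not computed.

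The gained CPC regions were the pair at Cdh5 described above and a region 38.6 kb below Icam2 in Scn4a (106338220 to 106339024), with scores of 65.7 and 71.8, near the lower limit. The latter also had a peak in induced EPC replicate 2 (101.7). The gained EPC regions lay inside Vwf (125602959 to 125603825, scores 61.1 and 86.4) and 17.9 kb above Robo4 in Robo3 (37431889 to 37432669, scores 53.4 and 50.9). The lost EPC region lay inside Cdh5 (104110536 to 104111344, scores 60.5 and 66.5). The authors' deposited lists of regions present after induction alone hold 3 entries at these genes for CPC (2 at Cdh5 and 1 at Icam2) and 2 for EPC (Robo4 and Vwf), which overlap the gained regions named here.

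**Figure D4:**
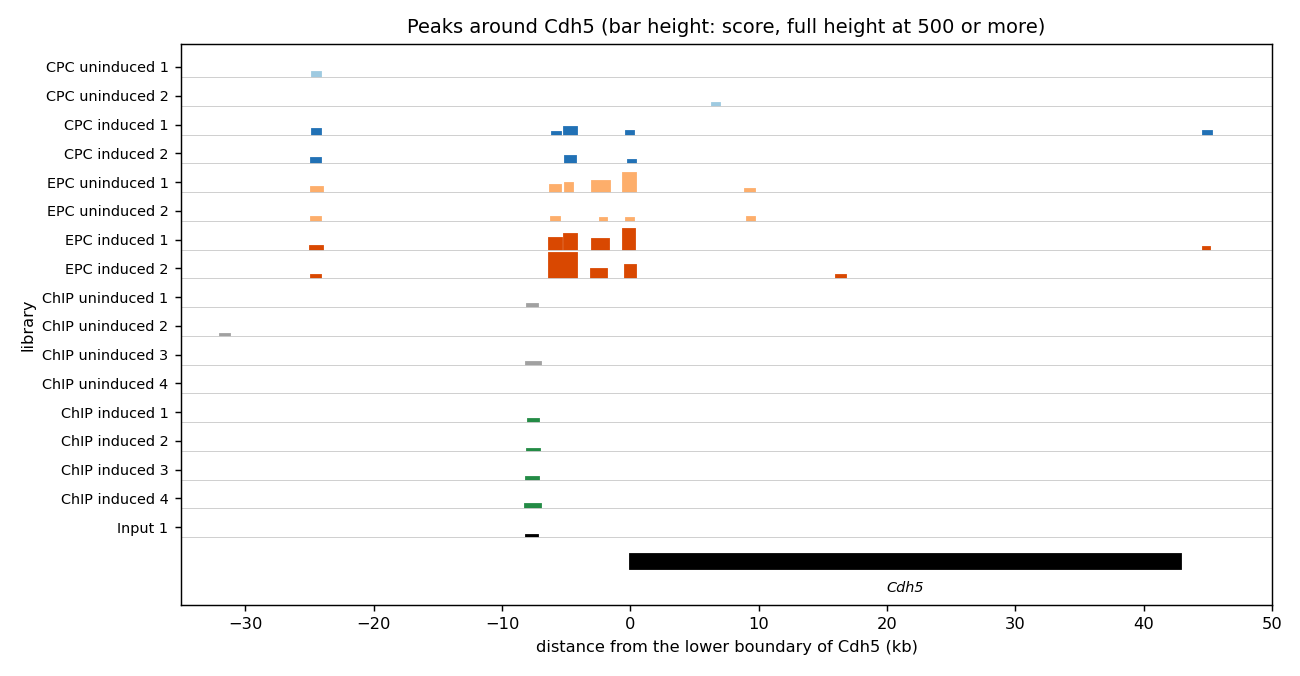
Peaks of the 17 lists (vertical axis) around Cdh5, as distance in kb from its lower boundary (horizontal axis), with bar height showing the score up to a fixed limit. Induced CPC libraries have peaks at the boundary and 4.16 kb below it that uninduced CPC libraries lack. The ChIP region 6.98 kb below it has a peak in 4 induced lists and in uninduced lists 1 and 3, and the uninduced input list has a peak there too.

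Numbers of ATAC peaks per gene were higher after induction at all 8 genes on average, by 0.25 (Pecam1) to 1.75 (Esam) peaks, where the median over all genes was 0.25 and induced lists were longer on average than uninduced ones. None of these differences passed the exact permutation test within cell type, whose smallest p is 0.0556 (p from 0.167 to 1, all with an adjusted p of 1). The 2 induced libraries lay above the 2 uninduced libraries in both cell types at 0 of 8 genes, against 3.81% of all genes, and below them at 0 of 8, against 0.184%. At Cdh5 the induced CPC libraries (6 and 4 peaks) lay above the uninduced ones (2 and 1), while in EPC the induced libraries (7 and 6) did not lie above the uninduced (9 and 6). At Esam the induced EPC libraries (11 and 9) lay above the uninduced (8 and 6), and CPC held 6 and 3 against 4 and 4. Induced libraries also lay above uninduced ones at Pecam1 in CPC (4 and 5 against 3 and 3). In EPC they did so at Icam2 (3 and 3 against 2 and 1) and Vwf (4 and 3 against 2 and 2). The share of all genes with this pattern in 1 cell type was not computed. Whether these effects differ between the cell types was not tested. With lists cut to equal length, the difference was above 0 at 4 genes only, Vwf (1), Robo4 (0.5), Cdh5 (0.25) and Icam2 (0.25). It was 0 at Esam and turned negative at Pecam1 (-0.75), Cd34 (-0.25) and Egfl7 (-1).

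The third comparison concerned the anti-Myc ChIP, which marks the tagged Sox7. ChIP peaks of all lists merged into 11 regions at 6 of the genes, and none lay at Cd34 or Robo4. Regions called in 3 or 4 induced and in none of the 3 uninduced libraries are named induced sites here, and 1 of the 11 was one, against 5.17% of all 4548 ChIP regions. One member, Vwf, had such a site within 50 kb (1 of 8 genes, against 1.88% of 21887 genes). The Vwf site spanned its lower boundary (125552392 to 125553442), with scores of 160.1, 133.6, 367.4 and 104.9 in induced replicates 1 to 4 and no peak in any uninduced or input list. In these lists the peak stood at or above 79.5, 74.2, 92.1 and 61% of all peaks. It coincided with the ATAC region that was open in all 8 libraries.

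No uninduced peak lay in 9 of the 11 ChIP regions, and 5 of these were seen in 1 induced list alone. They lay at Pecam1, Esam, Icam2, Vwf and Egfl7, 5 of 8 genes, against 19.9% of all genes with such a region within 50 kb. Egfl7 had 4 of them. The region 4.51 kb below the gene (26575640 to 26576573) had scores of 50.5 in induced replicate 1 and 118.6 in replicate 4. The next, 1.93 kb below the gene (26578111 to 26579155), had 68.2 in replicate 2 and 69.6 in replicate 3. Each had a peak in 2 induced libraries, so under the rule of 3 libraries neither was an induced site. No library had both. Single peaks lay 3.41 kb above the gene (43.7 in replicate 4) and 45.6 kb above it (46.2 in replicate 1), both near the lower limit of 40.

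All 4 Egfl7 ChIP regions overlapped merged ATAC regions that had peaks in 3 or 4 EPC libraries and in no CPC library. At the ChIP region 3.41 kb above the gene, single peaks overlapped it only in induced EPC replicate 2 and uninduced EPC replicate 1. The other EPC peaks there lay beside it in the same merged regions. Of the 2992 ChIP regions genome-wide with an induced peak and no uninduced one, 2.37% had an ATAC peak in at least 3 EPC and no CPC libraries, and 45.7% had no ATAC peak in any library, against 0 of the 9 at these genes. The 4 regions share 1 locus and are not independent. ChIP used unsorted cells, so the cell type in which these peaks arose cannot be told apart.

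At Icam2 a region 29.5 kb above the gene, in Ern1 (106417620 to 106418581), had scores of 104.8 and 57.3 in induced replicates 3 and 4. It overlapped ATAC peaks in 3 EPC libraries and 1 CPC library. The peaks of uninduced EPC replicate 1 (from 106418567) and induced CPC replicate 1 (from 106418525) reached only its upper edge. Induced replicate 3, the longest ChIP list, alone had the peaks at Pecam1, across its upper boundary (79.6) and 38.9 kb below it (47.9), and the peak 1.78 kb below Esam (45.1). With 2 induced libraries required in place of 3, there were 4 induced sites, at Vwf, Icam2 and 2 at Egfl7. Leaving out 1 induced library (2 of 3 then required) gave 3 sites without replicate 1 or 2 and 2 sites without replicate 3 or 4. The shares of all ChIP regions and of all genes under these looser rules were not computed, so these counts have no background beside them. The authors' deposited Sox7 list of 666 regions holds 3 entries at these genes, the Vwf site and the regions 4.51 and 1.93 kb below Egfl7, and their deposited list of 117 regions shared by Sox7 and Gata4 holds 1, the Egfl7 region at 4.51 kb.

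The ChIP region nearest to Cdh5 behaved differently. It lay 6.98 kb below the gene (104093423 to 104094632) and was called in all 4 induced lists (55.1, 41, 45.1 and 92.9), in uninduced lists 1 and 3 (57.5 and 60.8) and in the input list (44.2). No ATAC list had a peak there. A second Cdh5 region, 31.2 kb below the gene, was seen in uninduced list 2 alone (41.5). Neither region met the rule for an induced site. The input list had 1 further peak, within 50 kb of Robo4, with a score of 47.8 and no ChIP peak over it.

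**Figure D5:**
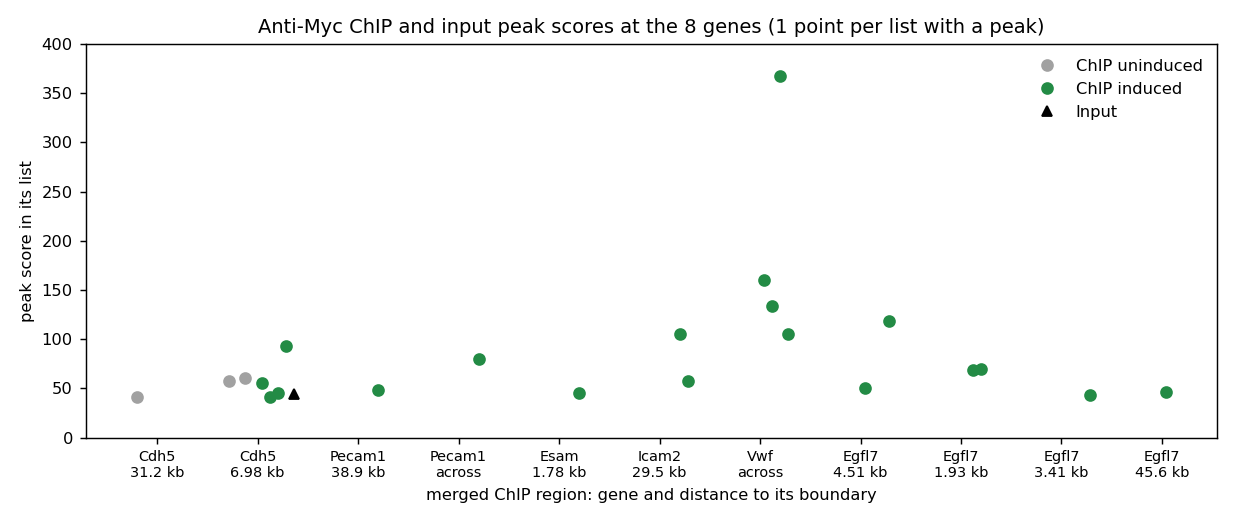
Scores of anti-Myc ChIP peaks (circles) and of the input peak (triangle) on the vertical axis at the 11 merged ChIP regions, each named by gene and distance to its boundary (horizontal axis). Vwf is the region with 4 induced points (104.9 to 367.4) and no uninduced point, and the Cdh5 region at 6.98 kb has uninduced, induced and input points.

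A list of 33 other genes for endothelial junction and surface proteins, also chosen with earlier results known, was described in the same way. Of these, 7 had an EPC-only region within 50 kb, against 8.48% of all genes. They were F11r and Ctnnd1, which encode the junction proteins JAM-A and p120-catenin, Eng, the gene of the TGF-beta co-receptor endoglin, and Cd93, Clec14a, Plvap and Mmrn1. One gene, Thbd, which encodes thrombomodulin, had a CPC-only region, against 5.61% of all genes. No gene of the list had an induced ChIP site, against 1.88% of all genes. Every EPC library lay above every CPC library at 0 of the 33 genes, and their median difference was 0.75 peaks, equal to that of the 8 members.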

How the data were processed

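Peak lists of 17 libraries (8 ChIP, 1 input, 8 ATAC) were used. Per the submitters' processing notes the build is GRCm38 (mm10), and the tools named without a role include Bowtie2, SAMtools, bedtools and MACS 1.4. Peak scores are the authors' deposited values, with a lowest score of 40 to 50.1 in ChIP and input lists and 50 in ATAC lists. Scores were used to describe, rank or filter peaks within a list, and those of different lists were not compared. Depth is unknown. How the authors made their derived lists, which hold other values (region positions), is not given in the sources used here.

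Peaks overlapping by 1 bp were merged per assay (51264 ATAC and 4548 ChIP regions). Gene bodies came from a RefSeq table (GRCm38.p6, 21887 protein-coding genes, no strand), and all 8 members matched. Peaks per locus were compared by two-sided exact permutation tests over all genes with Benjamini-Hochberg adjustment, in Python 3.11.15 with numpy 2.4.6 and pandas 2.3.3. The code was tested on simulated data. Named were all 8 genes, every region with a ChIP or input peak or a call, and the ATAC region with the highest mean score in or next to each gene. Also named were the 11 regions called in all 8 ATAC libraries and a few others at Esam and Cd34, chosen after their values were seen. The members and lists were chosen with earlier results of these data known. Exons and introns were not used here. Alternatives were other windows, scores, list lengths, overlaps, a replicate block and leaving out libraries.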

Additional observations from a re-analysis of the deposited data

Results flagged for a closer look

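Among 29 groups of 4 libraries that were looked at, 3 were flagged for a library apart from the others. In each of these the other 3 libraries had equal counts, and the rule then flags any differing count. Groups with 4 equal counts cannot be flagged, so no rate expected by chance applies. The ATAC groups hold induced and uninduced libraries together. Pecam1 had 2 ChIP peaks in induced replicate 3 and 0 in the other induced lists. Esam had 1 ChIP peak in induced replicate 3 and 0 in the others. That replicate had the longest ChIP list, with 2807 peaks against 1061 to 1851. Vwf had 4 ATAC peaks in induced CPC replicate 1, against 2 in each other CPC library.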

How the results depend on the processing

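Depth is unknown for every list, which limits all calls of absence. The 9 EPC-only regions became 3 in the gene bodies alone and 5 at scores of 100 or more, stayed at 9 with equal list lengths and a 50% overlap, and numbered 9 to 13 with 1 library left out. CPC-only regions numbered 0 to 1 in those runs (1 without EPC uninduced 1). The shares of all ATAC regions under these changed settings were not computed, so these counts cannot be set against the shares of the main run. Genes with every EPC library above every CPC library numbered 1 (Egfl7; 3.36% of all genes), 2 within 10 kb (2.36%), 3 in gene bodies alone (1.74%), 3 at equal list lengths (3.59%) and 1 to 3 with 1 library left out (3.71 to 6.98%). The count was 3 without CPC induced 1 (5.04%) and 2 without EPC uninduced 2 (6.98%). At scores of 100 or more the 1 such gene was Cd34 (3.07%).

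Gained CPC regions fell from 3 to 1 in gene bodies alone, and gained EPC regions from 2 to 1 there, within 10 kb and at equal lengths, but numbered 3 at scores of 100 or more. Lost CPC regions rose from 0 to 1 at equal lengths, and lost EPC regions fell from 1 to 0 at scores of 100 or more. Leaving out a library relaxes the rule for all regions. The shares of all regions gained or lost under any of these changed settings were not computed. Gained regions then numbered 3 to 10 in CPC and 2 to 10 in EPC, lost ones 0 to 3 and 1 to 9. Without CPC induced 1, induced 2, uninduced 1 or uninduced 2, gained CPC regions numbered 10, 10, 7 and 4 and lost ones 1, 2, 3 and 3. Without EPC induced 1, induced 2, uninduced 1 or uninduced 2, gained EPC regions numbered 6, 10, 8 and 4 and lost ones 1, 1, 2 and 9. Genes higher after induction in both cell types numbered 0 to 2 (2 without CPC induced 2, 1 without CPC uninduced 2). Induced ChIP sites numbered 1 to 3 (3 without induced replicate 1 or 2, 2 without 3 or 4). Requiring 2 induced libraries gave 4 sites, and the shares of all ChIP regions under these looser rules were not computed. The cause of these changes was not tested.

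Signs turned for EPC minus CPC at Cd34 (-0.75 within 10 kb, -0.5 in the body), Robo4 (0.75 in both), Pecam1 (1 at scores of 100 or more, 0.25 at equal lengths) and Vwf (-0.25 at scores of 100 or more). For induced minus uninduced they turned at Robo4 (-0.25 in both windows), Egfl7 (-0.25 in the body, -1 at equal lengths), Pecam1 (-0.75) and Cd34 (-0.25 at equal lengths). Leaving out 1 library turned Robo4 (-1.08 to 0.25) and Vwf (-0.167 to 0.75) for EPC minus CPC, and Egfl7 (-1.42 to 2.58) and Pecam1 (-0.25 to 0.833) for induction.

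With the replicate number as a block (replicate block), EPC exceeded CPC in all 4 pairs at 3 genes, Cdh5, Esam and Egfl7 (7.92% of all genes), and induced exceeded uninduced in all pairs at 0. That test cannot go below 0.125. Deviations of same-numbered ATAC libraries correlated at -0.0285 to 0.108 across genes, and the labels do not tie the numbers to a shared culture.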
